A study of Rattus norvegicus with 10 samples.

Results

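The electrical activity of β-cells depends on a set of ion channels, pumps and exchangers, and 42 genes of this machinery were followed in adult rat β-cells after silencing of Scrt1. The genes were chosen by symbol, from what they are known to do, but with earlier results of these data known. They were placed in 10 classes by the ion they carry and by their role. Of the 42, 41 were among the 23918 genes of the deposited table, and Kcnb2 was not analysed here. A further 2 genes, Kcnd3 and Kcnq1, had too few reads, so that 39 were tested among 12941 genes.

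Islets of adult Sprague-Dawley rats were dispersed and the β-cells were isolated by FACS from their autofluorescence. The sorted β-cells were kept on extracellular matrix and transfected either with a pool of siRNAs against Scrt1 (siScrt1, replicates A to E) or with a negative control siRNA (siCtrl, replicates 1 to 5), and RNA was extracted 48 h later. Both groups were transfected, and no untransfected cells were analysed here. Scrt1 encodes a zinc finger transcriptional repressor, and the comparison asks which transcripts depend on it. Whether the 5 libraries of a group came from separate rats is not stated, so that the p-values below measure the spread between these libraries, which may be technical.

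In a resting β-cell, KATP channels hold the membrane at a negative potential. When glucose raises the cell's ATP, these channels close, the membrane depolarises, voltage-gated calcium channels open and the calcium that enters triggers insulin exocytosis. Potassium channels then repolarise the cell, pumps and exchangers clear calcium from the cytosol, and the endoplasmic reticulum takes calcium up and releases it through IP3 and ryanodine receptors. STIM1, a calcium sensor of the reticulum membrane, opens ORAI1 channels of the plasma membrane when this store is empty.

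In siScrt1 β-cells 2 of the 39 members rose past an adjusted p of 0.05 (limma), against 1.05% of all genes (0.371% raised), and both belong to calcium release and store entry. These were Stim1, with a log2 fold change of 0.45 (SE 0.0812), and Itpr2, an IP3 receptor, with 0.31 (SE 0.0575). Neither call held without siScrt1 replicate D or E or siCtrl replicate 5, when no member passed by limma and 10, 11 and 10 members had an unadjusted p under 0.05. Over all genes these fits called 62, 64 and 77, against 136 with all libraries. The share of all genes with an unadjusted p under 0.05 in these fits is not given here, so these member counts lack a background. No member was lowered past an adjusted p of 0.05 in the fit of all libraries, against 0.68% of all genes, and neither KATP nor voltage-gated calcium channel genes passed it. The plasma membrane calcium pump Atp2b1 was lower in every siScrt1 library than in every siCtrl library, with a log2 fold change of -0.22 (SE 0.0548, adjusted p = 0.0896). Scrt1 itself was read 152 to 269 times in the siCtrl libraries and 24 to 74 times in the siScrt1 libraries. Its level was 14.1 ± 2.61 CPM (reads relative to the library total) against 3.58 ± 1.63 CPM (SD, n = 5), which was 74.6% lower. An exact permutation test, taken on both sides with libraries exchanged freely, gave p = 0.00794, and 5 against 5 libraries allow none smaller. Pairs of libraries by deposited number, described below, were not used in this test. The fitted log2 fold change of Scrt1 was -2.06 (SE 0.308, adjusted p = 0.00618).

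The promoters of Stim1, Itpr2, Ryr2 and Atp2b1 are shown because these were the 4 of 39 members (10.3%) whose siScrt1 and siCtrl scaled counts did not overlap, against 3.51% of all genes. For Ryr2 the gap was smaller than the worth of a read, and its groups overlapped in TPM. Snail and Scratch proteins are known to bind E-box sequences, and CAGGTG, with its reverse complement CACCTG, was searched in them. Each line gives the 250 bases before the RefSeq start site in the rat assembly GRCr8, in the direction of the gene, with matches in capitals. The locations are chr1:166067964-166068213 on the plus strand for Stim1, chr4:181134868-181135117 on the minus strand for Itpr2, chr17:63081277-63081526 on the plus strand for Ryr2 and chr7:35622211-35622460 on the plus strand for Atp2b1.
Stim1: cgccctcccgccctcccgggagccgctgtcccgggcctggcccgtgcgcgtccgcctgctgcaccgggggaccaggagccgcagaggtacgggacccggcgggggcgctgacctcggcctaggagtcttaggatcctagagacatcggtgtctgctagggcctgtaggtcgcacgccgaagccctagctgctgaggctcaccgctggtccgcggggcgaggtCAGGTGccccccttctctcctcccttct
Itpr2: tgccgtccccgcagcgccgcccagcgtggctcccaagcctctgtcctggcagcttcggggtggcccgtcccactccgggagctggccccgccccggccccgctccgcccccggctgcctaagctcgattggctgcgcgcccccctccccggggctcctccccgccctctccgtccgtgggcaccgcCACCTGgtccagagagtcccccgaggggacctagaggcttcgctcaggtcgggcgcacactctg
Ryr2: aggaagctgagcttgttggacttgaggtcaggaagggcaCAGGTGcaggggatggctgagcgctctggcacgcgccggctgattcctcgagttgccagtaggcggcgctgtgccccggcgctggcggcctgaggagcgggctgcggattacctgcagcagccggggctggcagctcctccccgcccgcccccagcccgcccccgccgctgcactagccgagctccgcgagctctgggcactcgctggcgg
Atp2b1: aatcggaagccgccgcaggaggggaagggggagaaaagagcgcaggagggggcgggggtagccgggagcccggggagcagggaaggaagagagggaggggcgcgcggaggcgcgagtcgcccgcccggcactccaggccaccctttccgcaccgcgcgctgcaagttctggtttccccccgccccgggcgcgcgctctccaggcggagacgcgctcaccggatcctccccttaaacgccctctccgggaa
Counting the base before the start site as -1, the Stim1 match spans positions -28 to -23 and the Ryr2 match positions -211 to -206, both as CAGGTG. In the Itpr2 promoter the match lies on the other strand, at -64 to -59, and the Atp2b1 window holds none. Over all windows, which also take in 50 bases after the start site, 10 of 36 promoters of members held the motif on either strand (27.8%), against 6304 of 33469 promoters of all genes (18.8%). The same motif preceded by CAA was in none of the 36 and in 0.203% of all promoters. Promoters were found for 33 of the 42 members, and 5 of the 11 members with an unadjusted p under 0.05 held the motif. A match of these letters is a description of the window and not a binding site.

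The sequenced cells carried the transcripts of β-cells. Between 11901342 and 17444034 reads were recovered per library, and Ins1 and Ins2 together took 8.88% to 14.97% of them. The 7 α-cell markers summed to 213 to 582 CPM in siCtrl and 211 to 464 CPM in siScrt1, nearly all from Gcg, and the 9 acinar markers to 1.99 to 5.16 CPM and 2.35 to 4.12 CPM. The 5 duct markers summed to 188 to 267 CPM in siCtrl and 201 to 267 CPM in siScrt1, nearly all from Krt7. The 5 δ- and PP-cell markers summed to 16.6 to 74.7 CPM and 20.4 to 82.8 CPM. The 7 mesenchymal markers summed to between 3.83 and 8.74 CPM in 8 libraries and to more in 2, siCtrl replicate 4 (18.7 CPM) and siScrt1 replicate D (32.1 CPM). Of the 60 genes on the 9 marker lists only 22 had enough reads to be tested, and none of these passed an adjusted p of 0.05 (limma). Without both libraries numbered 4 (siCtrl replicate 4 and siScrt1 replicate D), a choice made after seeing these sums, Scrt1 had a log2 fold change of -1.82 (adjusted p = 0.0621). In these bulk samples fewer cells of a type and less RNA per cell cannot be told apart.

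Levels between genes were compared in TPM, which is per transcript length. The authors' scaling had left TPM sums that differ between libraries, with 821278 in siCtrl replicate 2 and 909580 or more in the others. Over all libraries, the most abundant member was Slc30a8, the zinc transporter of insulin granules, at 558 TPM. Atp1b1, a subunit of the sodium-potassium pump, followed at 411 TPM, then the reticulum calcium pumps Atp2a3 at 268 TPM and Atp2a2 at 175 TPM. These 4 genes and Abcc8, the sulphonylurea receptor subunit of the KATP channel (83.6 TPM), kept their order in all 10 libraries without overlap. Below them the order was loose, and of the 40 pairs of neighbours in the order of levels only 7 were separate over all libraries.

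The KATP pore Kcnj11 stood next to its partner Abcc8 at 73.7 TPM. In total 20 members lay between 10 and 100 TPM. Among them were the calcium channel subunits Cacna2d1 (61.9 TPM), Cacnb3 (38.8 TPM), Cacnb2 (28.5 TPM) and Cacna1d (25.4 TPM), the large-conductance potassium channel Kcnma1 (44.1 TPM) and the sodium channel Scn3a (26.8 TPM). A further 10 lay between 1 and 10 TPM. The 7 members under 1 TPM were Ryr2 (0.685 TPM), Trpm2 (0.379 TPM), Ano1 (0.365 TPM), Trpv1 (0.328 TPM), Scn9a (0.228 TPM), Kcnq1 (0.0842 TPM) and Kcnd3 (0.0588 TPM).

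**Figure D1:**
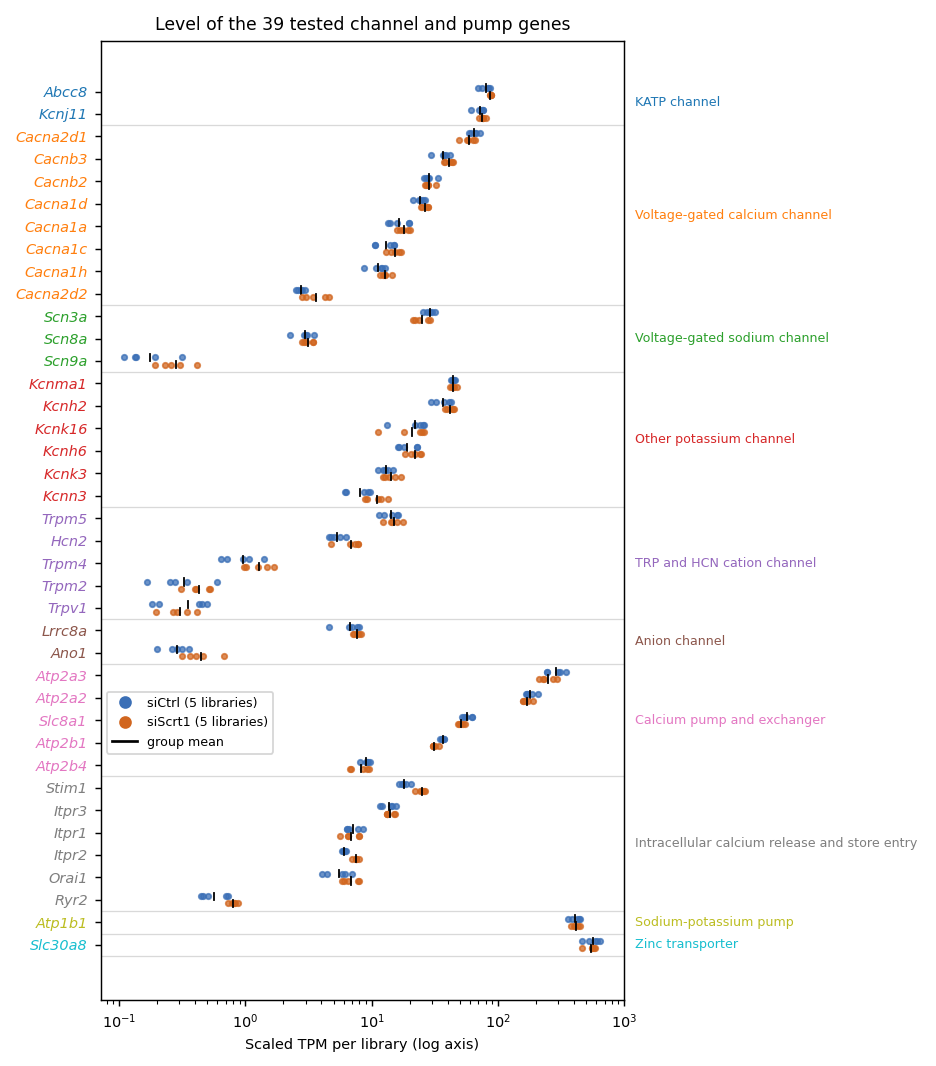
Level of the 39 tested members in scaled TPM (log axis), with a point for each of 5 siCtrl and 5 siScrt1 libraries and a black line for each group mean, ordered by class and level. Slc30a8 and Atp1b1 lie furthest to the right and Scn9a furthest to the left, and in most rows the points of both groups overlap.

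Changes were tested with limma on scaled counts, which are the deposited estimated counts summed per gene. Of the 39 tested members, 2 had an adjusted p under 0.05 (5.13%), against 136 of 12941 genes (1.05%). An unadjusted p under 0.05 was found for 11 members (28.2%), against 11.1% of all genes. Of these, 8 were higher in siScrt1, against 5.34% of all genes, and 3 lower, against 5.75%. The deposited table numbers the libraries of both groups 1 to 5, with siScrt1 replicates A to E as numbers 1 to 5. With this number as a block the 11 became 17, with 13 higher and 4 lower, and Stim1 and Itpr2 remained the members called. The block also took the genes called over the whole table from 136 to 259. For this fit and those without libraries, the share of all genes with an unadjusted p under 0.05 is not given here. Without both libraries numbered 4, 25 of all genes and no member were called by limma, and 7 members had an unadjusted p under 0.05. In that fit Stim1 was at 0.43 (adjusted p = 0.158) and Itpr2 at 0.30 (adjusted p = 0.160). The median log2 fold change of the members was 0.13, against 0.00351 for all genes, and 26 of 39 were above 0 (66.7%), against 51.0% of all genes. Members were more abundant than the genes at large, with a median log2 scaled count of 10.0 against 8.22, and the part of abundance in these shares was not tested. Because the members were chosen with earlier results of these data known, the shares are a description and not an independent test. The log2 fold changes of members ran from -0.22 for Scn3a to 0.70 for Scn9a.

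**Figure D2:**
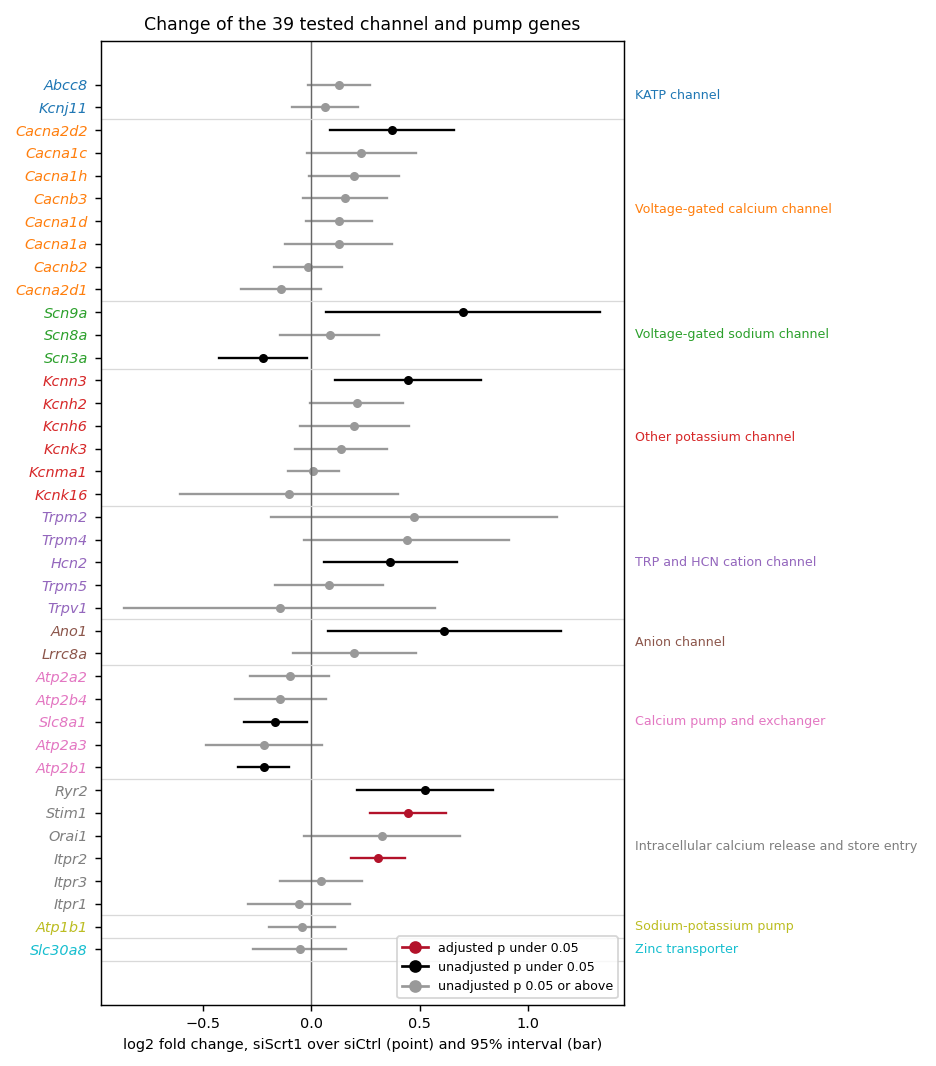
Log2 fold change of siScrt1 over siCtrl for each of the 39 tested members (points) with the 95% interval (bars), ordered by class. The intervals of Stim1 and Itpr2 (red) lie wholly above 0, and the points of all 5 calcium pumps and exchangers lie below 0. The 9 intervals in black, of members with an unadjusted p under 0.05 only, also exclude 0, and the remaining intervals, in grey, cross it.

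The class of calcium release and store entry held both calls. Of its 6 members 3 had an unadjusted p under 0.05 (50%), all higher in siScrt1, against 5.34% of all genes. In total 5 were above 0 (83.3%), against 51.0% of all genes. Outside the list, 0 of 3 tested store-operated entry genes and 0 of 2 tested IP3 and ryanodine receptors had an unadjusted p under 0.05. Stim1 (ENSRNOG00000020425), the store sensor, had scaled counts of 976, 924, 1166, 1011 and 1038 in siCtrl replicates 1 to 5 and 1184, 1486, 1369, 1429 and 1509 in siScrt1 replicates A to E. Every siScrt1 library was above every siCtrl library, with the smallest gap between siCtrl replicate 3 and siScrt1 replicate A. The log2 fold change was 0.45 (SE 0.0812, adjusted p = 0.0199), with a 95% interval of 0.27 to 0.62, and its TPM was 18.2 ± 1.57 in siCtrl and 24.8 ± 1.80 in siScrt1 (SD, n = 5). Leaving out siCtrl replicate 4 or 5, or siScrt1 replicate B, D or E, took the adjusted p to between 0.0522 and 0.0750 with log2 fold changes of 0.42 to 0.45.

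Itpr2 (ENSRNOG00000001804) encodes an IP3 receptor, a channel that releases calcium from the reticulum. Its scaled counts were 589, 570.1, 581, 599 and 558 in siCtrl and 721, 671, 717, 763 and 718 in siScrt1. The groups did not overlap and the siCtrl values lay close together. The log2 fold change was 0.31 (SE 0.0575, adjusted p = 0.0228), with a 95% interval of 0.18 to 0.43. Leaving out siCtrl replicate 5 or siScrt1 replicate A, C, D or E moved the adjusted p to between 0.0515 and 0.0940, with log2 fold changes of 0.29 to 0.31. Its paralogs Itpr1 and Itpr3 had log2 fold changes of -0.06 (SE 0.109, adjusted p = 0.890) and 0.04 (SE 0.0882, adjusted p = 0.898). In TPM, the ratio of Itpr2 to Itpr1 was 0.855 ± 0.113 in siCtrl and 1.10 ± 0.118 in siScrt1, and its ranges of 0.679 to 0.937 and 0.948 to 1.23 did not overlap. The ratio of Itpr2 to Itpr3 was 0.447 ± 0.0528 in siCtrl and 0.535 ± 0.0476 in siScrt1, with overlap.

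Ryr2, the ryanodine receptor of the list, was near the lower end of the levels. Its scaled counts were 169.8, 165, 119, 109 and 104 in siCtrl and 194, 170.0, 192, 182 and 204 in siScrt1. Replicates 1 and 2 of siCtrl were higher than the other 3, and the groups were separated by a gap, smaller than the worth of a read, between siCtrl replicate 1 and siScrt1 replicate B. In TPM they overlapped, with a highest siCtrl value of 0.724 and a lowest siScrt1 value of 0.722. The log2 fold change of 0.53 (SE 0.145, unadjusted p = 0.00312, adjusted p = 0.135) missed the threshold. Orai1, the pore that STIM1 opens, ran from 60.6 to 104 scaled counts in siCtrl and from 86.3 to 117 in siScrt1. These ranges overlapped, and its log2 fold change was 0.33 (SE 0.167, adjusted p = 0.503).

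**Figure D3:**
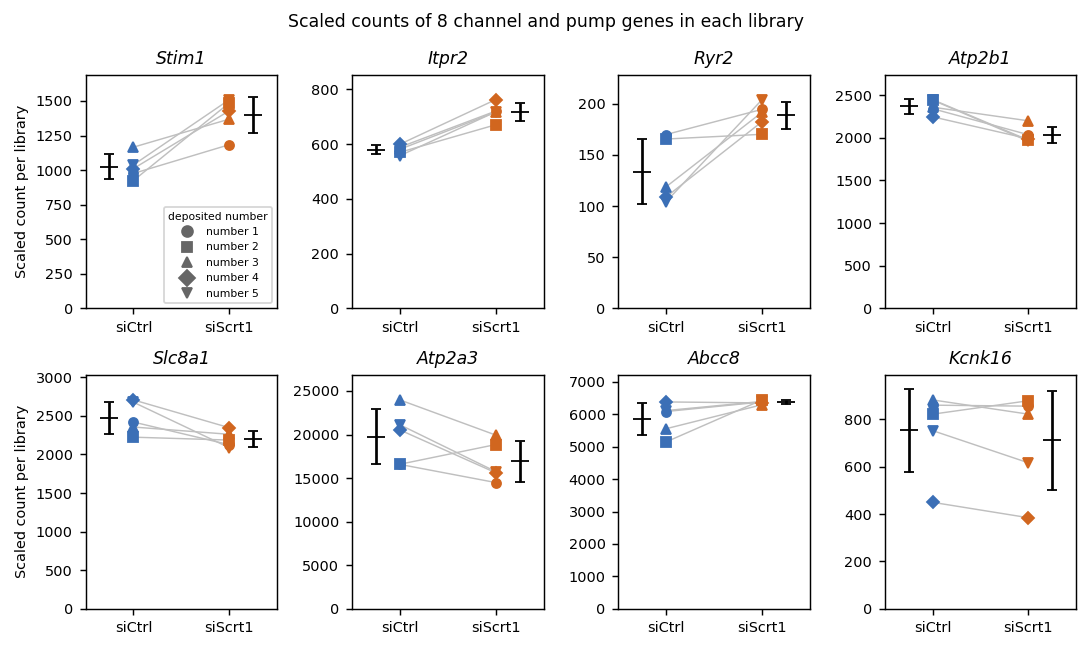
Scaled counts of 8 members in each library (axes start at 0), with grey lines joining libraries of the same deposited number and black bars for the mean and SD of each group (n = 5). Stim1, Itpr2 and Ryr2 are higher and Atp2b1 lower in every siScrt1 library than in every siCtrl library, Slc8a1, Atp2a3 and Abcc8 overlap, and Kcnk16 is lowest in both libraries numbered 4.

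The 5 calcium pumps and exchangers of the list all lay below 0, at a median of -0.17. Outside the list, 2 of 3 tested calcium ATPases and 2 of 3 tested sodium-calcium exchangers lay above 0. None of the 5 passed an adjusted p of 0.05, and 2 had an unadjusted p under 0.05 (40%, against 11.1% of all genes). Atp2b1, which pumps calcium out of the cell, had scaled counts of 2342, 2448, 2359, 2246 and 2443 in siCtrl and 2036, 1973, 2199, 1989 and 1961 in siScrt1. The highest siScrt1 library, replicate C, was still below the lowest siCtrl library, replicate 4. Its log2 fold change was -0.22 (SE 0.0548, unadjusted p = 0.00143, adjusted p = 0.0896), with a 95% interval of -0.34 to -0.10. Slc8a1, the sodium-calcium exchanger, had scaled counts of 2419.8, 2224, 2355, 2707 and 2677 in siCtrl and 2125, 2186, 2261, 2346 and 2087 in siScrt1. These groups overlapped, although each siScrt1 library was below the siCtrl library of the same number, and the log2 fold change was -0.17 (SE 0.0674, unadjusted p = 0.0277, adjusted p = 0.363).

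The reticulum pumps were far more abundant. Atp2a3, the calcium pump SERCA3, had scaled counts of 16574, 16587, 23977, 20529.9 and 21126 in siCtrl and 14489, 18849, 19939, 15614 and 15748 in siScrt1. Its spread was wide in both groups, with siCtrl replicate 3 the highest of all, and the log2 fold change was -0.22 (SE 0.124, adjusted p = 0.551). For Atp2a2, which encodes SERCA2, the values were 13063, 14569.7, 16326, 12941 and 13315 in siCtrl and 12685, 13525, 14578, 12288 and 12304 in siScrt1. It was lower in each of the 5 pairs of the same number but the groups overlapped, at -0.10 (SE 0.0848, adjusted p = 0.705). Atp2b4, another plasma membrane calcium pump, had a log2 fold change of -0.14 (SE 0.0969, adjusted p = 0.623). The ratio of Stim1 to Atp2a3 in TPM was 0.0636 ± 0.00622 in siCtrl and 0.101 ± 0.0127 in siScrt1, without overlap between 0.0719 and 0.0829. Of all the ratios examined, only this ratio and that of Itpr2 to Itpr1 were separate. Their numerators, Stim1 and Itpr2, were the members called, so these ratios are not separate support for those changes.

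The KATP channel, which sets the resting potential, showed no change past the threshold. Abcc8 had scaled counts of 6089, 5151, 5558, 6384 and 6118 in siCtrl and 6384, 6447, 6299, 6354 and 6400.1 in siScrt1. The siScrt1 values were close together and lay at or near the top of the siCtrl range, and the log2 fold change was 0.13 (SE 0.0665, adjusted p = 0.517), with a 95% interval of -0.02 to 0.27. Kcnj11 had 3195, 2815, 3529, 3507 and 3436 in siCtrl and 3221, 3656, 3388, 3464 and 3444 in siScrt1. Its groups overlapped throughout, at 0.06 (SE 0.0711, adjusted p = 0.788) with a 95% interval of -0.09 to 0.22, so that a rise of more than 0.22 on the log2 scale lay outside the interval. Both genes are neighbours in the rat assembly GRCr8, and their ratio in TPM was 1.11 ± 0.0784 in siCtrl and 1.16 ± 0.0496 in siScrt1.

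Among the 8 voltage-gated calcium channel subunits none was called, and 1 had an unadjusted p under 0.05 (12.5%, against 11.1% of all genes). In total 6 were above 0 (75%, against 51.0%). Cacna1d and Cacna1c encode the pores of L-type channels, through which most of the calcium that triggers insulin release enters. Cacna1d had scaled counts of 2981, 2865, 2569.9, 3229 and 3128 in siCtrl and 3042, 3024, 3283, 3411 and 3351 in siScrt1. Those of Cacna1c were 1484, 1151, 1156, 1630.0 and 1637 in siCtrl and 1537, 1409.6, 1634, 1861 and 1778 in siScrt1. Both were higher in siScrt1 in 5 of 5 pairs of the same number, their groups overlapped, and the log2 fold changes were 0.13 (SE 0.0708, adjusted p = 0.542) and 0.23 (SE 0.116, adjusted p = 0.494). For Cacna1c, replicates 4 and 5 of siCtrl and their siScrt1 counterparts D and E were the highest of their groups.

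The auxiliary α2δ subunits, which bring the pores to the membrane, had log2 fold changes of opposite sign, and neither passed the threshold. Cacna2d1, the most abundant calcium channel subunit, had scaled counts of 3393, 3775, 3368, 3741 and 4133 in siCtrl and 3252, 2822, 3249, 3660.2 and 3724 in siScrt1. It was lower in each pair but overlapping, at -0.14 (SE 0.0854, adjusted p = 0.574). Cacna2d2 had 193, 179.7, 194, 205 and 176 in siCtrl and 237, 293, 318, 194 and 208 in siScrt1. Its siScrt1 values were split, with replicates A to C well above all siCtrl libraries, E just above them and D within their range, at 0.37 (SE 0.132, unadjusted p = 0.0144, adjusted p = 0.283). The P/Q-type pore Cacna1a, the T-type pore Cacna1h and the β subunits Cacnb2 and Cacnb3 had log2 fold changes of 0.13, 0.20, -0.02 and 0.15, with adjusted p between 0.481 and 0.955.

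Voltage-gated sodium channels carry the upstroke of action potentials, and Scn3a made up 90.2% of the class sum in siCtrl. It had scaled counts of 3389.8, 3119.7, 2726, 2935 and 3203 in siCtrl and 3086, 2265, 2991, 2362 and 2528 in siScrt1. The groups overlapped, with siScrt1 replicates A and C inside the siCtrl range, and the log2 fold change was -0.22 (SE 0.0948, unadjusted p = 0.0349, adjusted p = 0.388). Scn9a, the least abundant tested member, went the other way, from 46.0, 19.8, 16.2, 19.5 and 28.2 in siCtrl to 60.7, 28.4, 33.5, 44.4 and 37.9 in siScrt1, where a read was worth 0.842 to 1.26 scaled counts. Its groups overlapped through siCtrl replicate 1, and the log2 fold change of 0.70 (SE 0.293, unadjusted p = 0.0325, adjusted p = 0.379) had a 95% interval of 0.07 to 1.34. Scn8a had a log2 fold change of 0.08 (SE 0.106, adjusted p = 0.818).

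Of the 6 tested potassium channels outside the KATP complex, 5 were above 0 (83.3%, against 51.0% of all genes). An unadjusted p under 0.05 was found for 1 (16.7%, against 11.1%). Kcnn3, a small-conductance channel opened by calcium, had scaled counts of 352, 257, 249, 397 and 378 in siCtrl and 369.8, 456, 358, 548 and 481 in siScrt1. It was higher in 5 of 5 pairs of the same number, although the groups overlapped. The log2 fold change was 0.45 (SE 0.156, unadjusted p = 0.0131, adjusted p = 0.276). Kcnma1, the most abundant of the class, had the smallest SE of the 39 members, with scaled counts of 2532, 2599.8, 2625, 2658 and 2477 in siCtrl and 2523, 2657, 2764, 2600.3 and 2437 in siScrt1. Its log2 fold change was 0.01 (SE 0.0541, adjusted p = 0.969), with a 95% interval of -0.11 to 0.13.

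The ERG-type channels Kcnh2 and Kcnh6, which help end bursts of action potentials, had log2 fold changes of 0.21 (SE 0.0988, adjusted p = 0.460) and 0.20 (SE 0.116, adjusted p = 0.569). For the background channel Kcnk3 it was 0.14 (SE 0.0983, adjusted p = 0.646). Kcnk16, a potassium leak channel of β-cells known as TALK-1, had scaled counts of 859.9, 822, 882, 449.6 and 752 in siCtrl and 856, 879, 822, 384 and 616 in siScrt1. Both libraries numbered 4 stood far below the rest, and these were the libraries with the highest mesenchymal marker sums, whose part in this was not tested. The log2 fold change of Kcnk16 was -0.11 (SE 0.233, adjusted p = 0.905), with an interval as wide as -0.61 to 0.40. For the genes under the filter, Kcnd3 was read 6, 6, 0, 4 and 8 times in siCtrl and 3, 9, 4, 4 and 12 times in siScrt1, and Kcnq1 1, 3, 2, 0 and 2 and 1, 1, 5, 1 and 0 times, so that no difference was detectable at this depth.

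TRP and HCN channels carry cations that depolarise the cell, and 4 of the 5 were above 0 (80%, against 51.0% of all genes). Trpm5, a calcium-activated channel and the most abundant of them, had scaled counts of 604, 667, 849, 848 and 759.9 in siCtrl and 646, 754, 935, 836 and 766 in siScrt1. The groups overlapped, at 0.08 (SE 0.115, adjusted p = 0.843). Hcn2, a channel opened by hyperpolarisation, had 189, 175, 239, 213 and 179.9 in siCtrl and 178, 292, 276, 294 and 254 in siScrt1. Replicates B to E were above all siCtrl libraries and replicate A was within the siCtrl range, and the log2 fold change was 0.36 (SE 0.142, unadjusted p = 0.0237, adjusted p = 0.339). Trpm4, which calcium opens, Trpm2, which ADP-ribose opens, and the capsaicin receptor Trpv1 had wide intervals around log2 fold changes of 0.44, 0.48 and -0.15, with adjusted p of 0.486, 0.609 and 0.906.

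The anion channel genes were Lrrc8a, a subunit of the channel that opens when cells swell, and Ano1, a chloride channel opened by calcium. Lrrc8a had scaled counts of 334, 222, 318, 384 and 376 in siCtrl and 341, 365, 393, 398 and 348 in siScrt1, where siCtrl replicate 2 was lowest, and its log2 fold change was 0.20 (SE 0.131, adjusted p = 0.619). Ano1 had 13.8, 21.9, 18.1, 19.8 and 24.5 in siCtrl and 28.0, 32.3, 47.6, 21.7 and 24.8 in siScrt1. Replicates A to C were above all siCtrl libraries, E was so by a narrow margin and D was not, at 0.61 (SE 0.249, unadjusted p = 0.0288, adjusted p = 0.369). In B and C this rested on a minor transcript of Ano1, with 7.96 and 27.2 scaled counts there and 0 in all other libraries. The main transcript had 24.3 and 20.4 in B and C, within the siCtrl range. Its log2 fold change was 0.29 (SE 0.224, adjusted p = 0.728 by limma).

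Neither of the most abundant members passed the threshold. Slc30a8 had scaled counts of 7326, 8454, 10381, 9355 and 9796 in siCtrl and 7363, 8739, 9018, 8958 and 9392 in siScrt1. Those of Atp1b1 were 8979, 8614, 9696, 8168 and 8557 in siCtrl and 9188, 8064, 9095, 8406 and 7984 in siScrt1. The groups overlapped throughout for both. Their log2 fold changes were -0.05 (SE 0.0999, adjusted p = 0.887) and -0.04 (SE 0.0704, adjusted p = 0.873), with 95% intervals of -0.27 to 0.16 and -0.19 to 0.11.

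Summed over each class in TPM, calcium release and store entry was the only one of the 10 classes whose groups did not overlap. Its sum was 51.0 ± 3.65 in siCtrl and 60.9 ± 2.54 in siScrt1 (SD, n = 5), with ranges of 45.2 to 54.7 and 56.7 to 63.0. Without Stim1 the log2 ratio of the sums went from 0.26 to 0.13 and the groups overlapped. They also overlapped as summed CPM, at a log2 ratio of 0.14. The pumps and exchangers summed to 572 ± 56.7 in siCtrl and 508 ± 48.2 in siScrt1, with overlap. KATP subunits summed to 152 ± 12.2 in siCtrl and 163 ± 3.52 in siScrt1, and voltage-gated calcium channel subunits to 198 ± 14.1 in siCtrl and 204 ± 10.3 in siScrt1. Sodium channels summed to 31.9 ± 2.78 in siCtrl and 28.2 ± 3.48 in siScrt1, other potassium channels to 143 ± 6.10 in siCtrl and 155 ± 9.21 in siScrt1, TRP and HCN channels to 21.0 ± 2.55 in siCtrl and 23.9 ± 2.98 in siScrt1, and anion channels to 7.06 ± 1.34 in siCtrl and 8.10 ± 0.540 in siScrt1. Without Scn3a the log2 ratio of the sodium channel sums turned from -0.18 to 0.12. Without Trpm5 that of TRP and HCN channels went from 0.18 to 0.36, and without Lrrc8a that of anion channels from 0.20 to 0.65. No test was made of these sums.

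**Figure D4:**
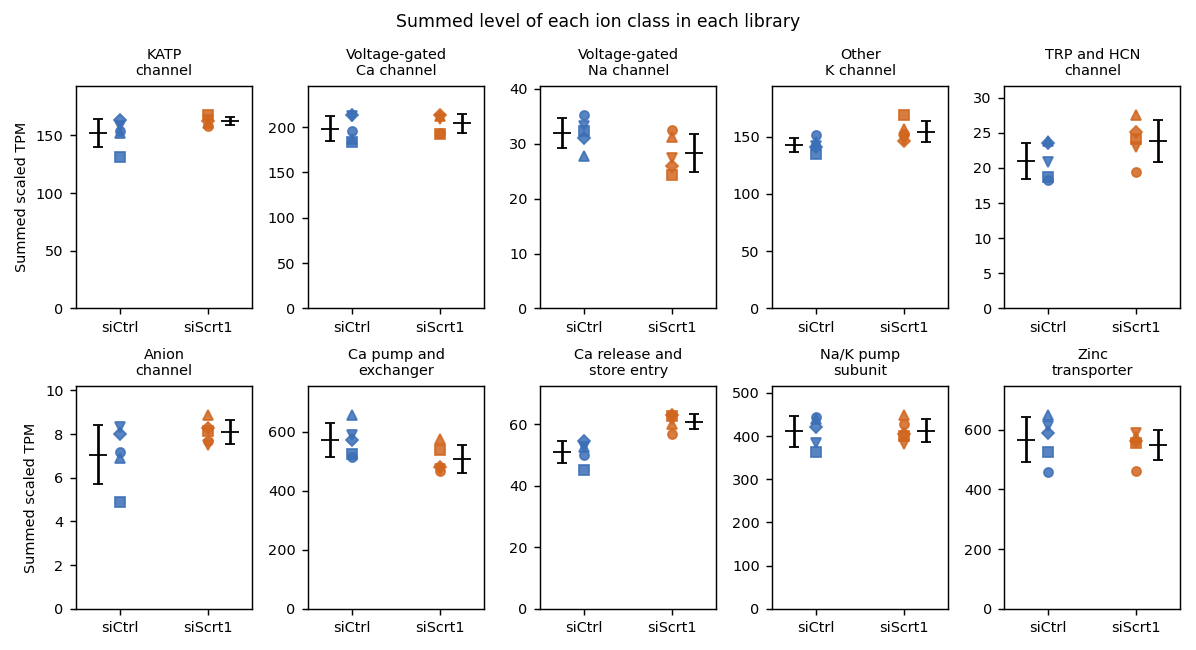
Summed scaled TPM of the members of each class in each library (markers stand for the deposited number, axes start at 0), with the mean and SD of each group (n = 5). In the panel of calcium release and store entry the siScrt1 points lie between 56.7 and 63.0 and the siCtrl points between 45.2 and 54.7, and in the other 9 panels the groups overlap.

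At the level of transcripts, 93 belonged to members and 72 of them were tested. The single transcript with an adjusted p under 0.05 was the sole transcript of Itpr2 (0.31, SE 0.0539, adjusted p = 0.0363), against 0.415% of all 17580 transcripts tested. A further 11 had an unadjusted p under 0.05, so that 12 of 72 did, against 9.32% of all transcripts. The rise of Stim1 was spread over both of its main transcripts, which differed in length at 3613 and 4045 bases. The shorter went from 8.06 ± 1.90 to 12.3 ± 1.63 TPM (0.63, SE 0.172, adjusted p = 0.219) and the longer from 8.53 ± 1.52 to 10.7 ± 1.36 TPM (0.33, SE 0.134, adjusted p = 0.474). Reads shared between these transcripts were divided by kallisto. The main transcript of Atp2b1 had a log2 fold change of -0.23 without overlap between groups (adjusted p = 0.137).

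Channel and pump genes outside the list, found by their family symbols, numbered 216 in the table and 116 were tested. Of these, 1 passed an adjusted p of 0.05 (0.862%) and 11 an unadjusted p of 0.05 (9.48%), 6 of them higher and 5 lower in siScrt1. Their median log2 fold change was 0.03. The called gene was Kcnj15 (ENSRNOG00000001656), an inwardly rectifying potassium channel. Its scaled counts were 63.9, 50.3, 51.6, 49.3 and 50.02 in siCtrl and 141, 111, 85.6, 113 and 103 in siScrt1. The groups were well apart, and the level rose from 2.56 ± 0.303 to 5.36 ± 0.979 TPM, a log2 fold change of 1.05 (SE 0.146, adjusted p = 0.00475). Without both libraries numbered 4 it was 1.01 (adjusted p = 0.0579).

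Other genes outside the list with small p-values did not pass the threshold. Lrrc8d, a partner of LRRC8A, had a TPM of 55.3 ± 5.26 in siCtrl and 43.5 ± 4.92 in siScrt1 and a log2 fold change of -0.35 (SE 0.0898, adjusted p = 0.102). Smdt1, a subunit of the mitochondrial calcium uniporter, had a log2 fold change of -0.43 (SE 0.128, adjusted p = 0.182), and Atp2b3, a plasma membrane calcium pump, of 0.31 (SE 0.0955, adjusted p = 0.201), opposite in sign to Atp2b1. Slc39a9, a zinc transporter, was at -0.18 (SE 0.0549, adjusted p = 0.205).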

How the data were processed

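RNA of 10 libraries (5 siCtrl, 5 siScrt1) was sequenced as single-end reads. The authors aligned them to the rat Rnor6 transcriptome with kallisto and processed the output with sleuth, and the submitters' processing notes also name FastQC and Trimmomatic. Versions are not given in the sources used here. The deposited table gives for 31715 transcripts an estimated count and a TPM, both on a linear signal scale that the authors had scaled between libraries, and 9363 rows without values were left out. A read was worth 0.842 to 1.26 scaled counts, and division by this step gave 48.5% to 49.2% of transcript values as whole numbers (tolerance 0.001), the rest being reads shared between transcripts. These recovered reads gave the depth, 11901342 to 17444034 per library, and CPM. They cover counting error only.

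For each Ensembl gene the scaled counts of its transcripts were added up, 0.5 was added and the log2 taken. A linear model of group alone was fitted to these values by limma 3.58.1 (lmFit, then eBayes with trend; R 4.3.3), which understates fold changes of low genes. Genes were kept at 0.7 CPM, or 10 reads in a median library, in at least 5 libraries and at least 15 reads in all. Transcripts were kept at 5 reads in 5 libraries. P-values were adjusted over all features by Benjamini-Hochberg, with a threshold of 0.05. The test was checked on simulated data. Libraries of the same deposited number deviated together (correlations of 0.131 to 0.351, others -0.179 to 0.167), so the numbers were taken as pairs and a fit with this block was an alternative, beside other scalings, filters, pseudocounts, TPM, limma-voom on recovered reads and leaving out libraries.

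The members and lists were chosen with earlier results of these data known. Values per library are given for members with an unadjusted p under 0.05, the most abundant of each class, 8 core genes and those under the filter. Other channel genes are named by an adjusted p under 0.05 or as the 5 next smallest p, of which 1 is not reported here. Promoters are RefSeq sequences of GRCr8, while the files use Rnor6, and no other coordinates are given.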

Additional observations from a re-analysis of the deposited data

Results flagged for a closer look

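Kcnk16 in siCtrl replicate 4 stood apart from the other control libraries. It had 32.7 CPM there, and 54.0 to 61.7 CPM in the other 4, a gap of 0.737 of the whole range, where Dixon's 95% limit for 5 values is 0.71. Of the 80 groups of 5 values examined, 1 was marked in this way, and chance marks about 1 in 20, or about 4. The siScrt1 library of the same number, replicate D, was also the lowest of its group, at 384 scaled counts of Kcnk16.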

How the results depend on the processing

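Of the 21 alternatives, Stim1 kept an adjusted p under 0.05 in 15 and Itpr2 in 12, and both kept their direction in all 21, with adjusted p of 0.00776 to 0.158 and 0.0229 to 0.160. The number of members called was 1 (Stim1) with log2(TPM + 1), with log2(TPM + 0.1) and without both libraries numbered 1, and 0 without both libraries numbered 4. Leaving out 1 library gave 0 to 2, with 0 by limma without siCtrl replicate 5, siScrt1 replicate D or siScrt1 replicate E. In these fits 10, 10 and 11 members had an unadjusted p under 0.05, and the share of all genes is not given here. Genes called numbered 259 with the replicate block, which kept 132 of the 136, 25 without both libraries numbered 4, and 62 to 133 with 1 library left out. Transcripts called numbered 29 with the block and 16 to 67 with 1 library left out. The block changed no other call. Other channel genes called numbered 1 to 2 with 1 library left out and 0 without both libraries numbered 4, where Scrt1 was at -1.82. Fits without a library rest on fewer samples, and the cause of the other moves was not tested.

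Some members near 0 changed sign. Cacnb2 was at 0.0391 without both libraries numbered 4 and 0.000905 without both numbered 1, Trpv1 at 0.0668 without both numbered 4, and Atp1b1 at 0.00874 with log2(TPM + 1) and 0.00876 with log2(TPM + 0.1). With 1 library left out the ranges were -0.0578 to 0.0321 for Cacnb2, -0.00478 to 0.14 for Scn8a, -0.28 to 0.10 for Kcnk16, -0.0139 to 0.0316 for Kcnma1, -0.320 to 0.0197 for Trpv1, -0.11 to 0.00924 for Itpr1, -0.0103 to 0.0969 for Itpr3 and -0.13 to 0.00437 for Slc30a8. Class sums moved without their most abundant member, to a log2 ratio of 0.12 for sodium channels (a change of sign), 0.36 for TRP and HCN channels, 0.65 for anion channels and 0.13 for calcium release and store entry, and the last was 0.14 as summed CPM. In both of these cases the groups of calcium release and store entry overlapped.

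Depth limits the low members. Trpm2, Trpv1, Ano1 and Scn9a had few reads and wide intervals, and Kcnd3 and Kcnq1 were not tested. A share of reads could not be tied to single transcripts. The deposited scaling fixes what a level means between libraries, and 5 libraries per group, of unstated origin, set the precision.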
